A study of Homo sapiens with 42 samples.

Results

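WTAP was depleted with a short hairpin RNA (shRNA) in HepG2 (a cell line from a human hepatocellular carcinoma), and N6-methyladenosine (m6A) in mRNA was mapped by m6A-seq against cells with a non-specific control shRNA. The comparison held 63064 of the 211410 peaks in the 7 lists of the series, 33672 from control cells and 29392 from shWTAP cells. A control peak was called lost when no shWTAP peak on the same strand shared 1 or more bases of its exon blocks, and an shWTAP peak was called gained by the same rule in the other direction. By this rule 9690 control peaks were lost, 23982 were kept, and 3973 shWTAP peaks were gained.

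The series has 42 libraries in 14 groups of 3, an input and an immunoprecipitated (IP) group for each of 7 conditions. Both groups used here were HepG2 cells with a stably expressed lentiviral shRNA, kept under puromycin, from which mRNA was sonicated and pulled down with an m6A antibody. They differ in the shRNA, either the non-specific control or 1 hairpin against WTAP, so a second hairpin against WTAP was not analysed here. The 3 input and 3 IP libraries of a condition were called together into 1 list, and the labels do not say whether the replicates were separate cultures. There is thus no spread between replicates and no test between the conditions: the ranges given with shares are 95% limits by the exact Clopper-Pearson method and express counting error alone. The level of WTAP itself was not measured in the peak lists, so the knockdown has no check here. Read depth is unknown from these lists, and a peak missing from a list can follow from depth or from fewer transcripts as well as from less m6A, which cannot be told apart.

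m6A is placed on nascent mRNA by a nuclear methyltransferase complex. METTL3 carries the catalytic site, METTL14 helps to bind the RNA, and WTAP is the adaptor subunit that holds the pair together with further proteins and brings them to nuclear speckles. In mRNA the mark is most frequent near stop codons, in 3′ untranslated regions and in long internal exons, and it is read by proteins that act on splicing, export, translation and decay.

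The lists for shMETTL14 and shMETTL3 come from the same set of conditions and share the control list with shWTAP. A second control list was made for another hairpin (SETD2 #2). It serves here as a control list that differs from the first by no knockdown of the complex, although the labels do not date either set. Its enrichment was lower as a whole. The median fold over all its peaks was 4.33, against 6.79 in control, 6.99 with shWTAP, 6.71 with shMETTL14 and 7.02 with shMETTL3. What sets this difference was not tested. Values from these lists are set side by side below, and no difference between lists was tested.

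Lost peaks were weak and short, and most lay in a single exon block. Of all control peaks, 28.8% (28.3 to 29.3) were lost with shWTAP, and 43.8% where a match had to cover 50% of both peaks. The median fold enrichment (IP over input, the authors' value) was 3.55 for lost peaks, with an interquartile range of 2.31 to 7.71, and 8.6 for kept ones, with 4.47 to 17.3. Their median log10 p-value of IP against input was -4.24 and -23. The median length in exons was 151 bases for lost and 330 bases for kept peaks, and 79.1% of lost against 53.9% of kept peaks had 1 block. Gained peaks made up 13.5% (13.1 to 13.9) of the shWTAP list and were as short as the lost ones, with a median of 151 bases. That share was 28.9% against the second control list and 35.6% where a match had to cover 50% of both peaks, and 3.16% of shWTAP peaks at or better than the median p-value were gained. Their median fold enrichment was 8.27 and their median log10 p -4.11, beside 6.90 and -16.7 for kept shWTAP peaks.

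Losses followed the strength of the control peak. Among 10 equal classes of control peaks by p-value, the share lost rose from 0.297% (0.142 to 0.545) in the best class to 69.3% (67.7 to 70.9) in the weakest. The same classes gave 0.148% and 71.6% absent from the shMETTL14 list, 0.0593% and 69.2% from the shMETTL3 list, and 0.563% and 73.4% from the second control list. In the fifth of these classes, of middling strength, 21.5% were lost with shWTAP, 21.8% were absent with shMETTL14 and 7.92% with shMETTL3, and 17.8% were absent from the second control list. The total for the second control list, 28.6%, was thus near that of shWTAP, and the totals for shMETTL14 and shMETTL3 were 29.8% and 22.8%. Gains followed strength too, from 0.0681% (0.00824 to 0.246) of the best class of shWTAP peaks to 40.7% (38.9 to 42.5) of the weakest. Second control peaks absent from the control list likewise went from 1.22% (0.861 to 1.66) of their best class to 40.5% (38.7 to 42.2) of their weakest.

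**Figure D1:**
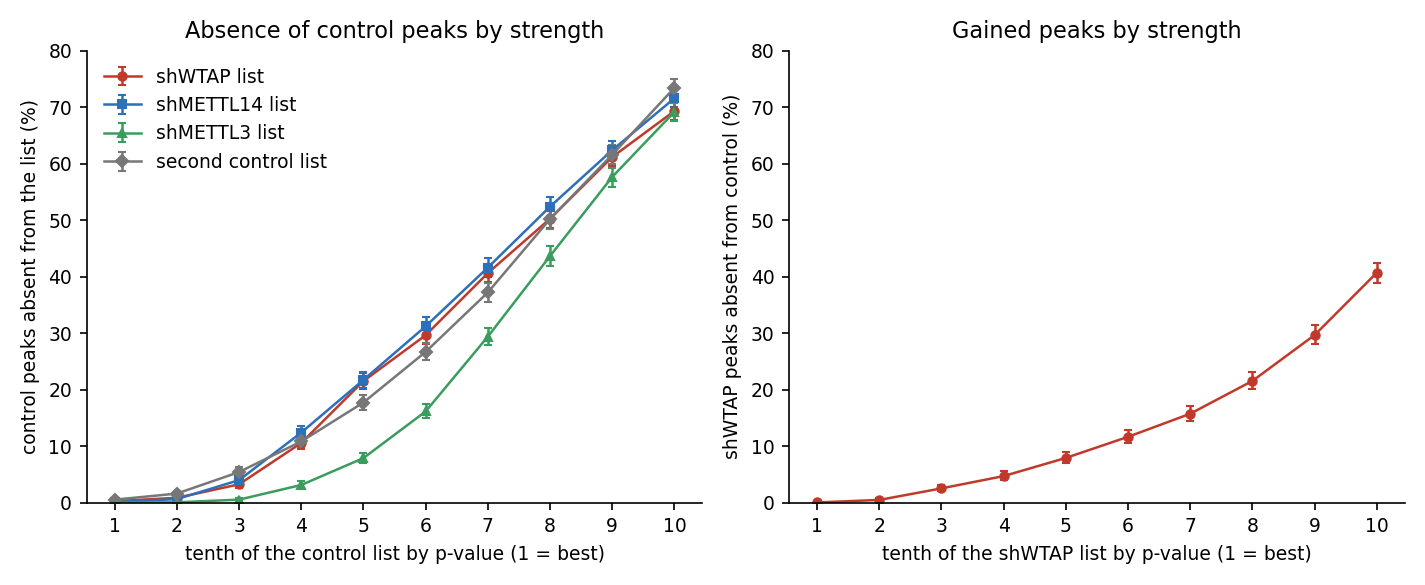
Share of peaks with no counterpart, in percent, in 10 equal classes by p-value, with exact 95% intervals for counting error. Left, control peaks absent from the shWTAP, shMETTL14, shMETTL3 and second control lists, where the shWTAP share climbs from 0.297% to 69.3%; right, shWTAP peaks absent from the control list, which climb from 0.0681% to 40.7%.

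Kept peaks covered less sequence with shWTAP. The control peaks covered 12.2 Mb of exon sequence and the shWTAP peaks 9.85 Mb, of which 8.52 Mb lay in both. Of the 3.71 Mb covered only in control, 2.1 Mb (56.5%) lay inside kept peaks and 1.61 Mb in lost peaks, so more of the missing sequence lay within kept peaks than in lost ones. In the other direction 1.33 Mb were covered only with shWTAP, 0.664 Mb of it added to kept peaks. Covered sequence was not counted for the other lists, but shorter peaks were not particular to shWTAP. Median peak length over the whole list was 269 bases in control and 240 bases with shWTAP. It was 240 bases with shMETTL14, 241 with shMETTL3 and also 240 in the second control list. Some 15.5% of kept control peaks (3726) met 2 or more shWTAP peaks, against 10.6% of kept shWTAP peaks (2696) that met 2 or more control peaks. The best-matching shWTAP peak covered a median of 84.6% of a kept control peak, and all of it for 31.5%. Near misses were few: 339 lost peaks (3.50%) had an shWTAP peak within 100 bases, and 229 gained peaks (5.76%) had a control peak that near.

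The 5 kept peaks described here had the best control p-value, tied at a log10 p of minus infinity and ranked by fold enrichment. They stayed in each of the 7 lists, with a lower fold in shWTAP cells than in control cells. Their folds were 228 to 276 in control. The minus-strand peak at chr1:201436682-201438365 (hg19) had a fold of 276 in control and 110 in shWTAP, and 178 with shMETTL3 and 49.3 with shMETTL14. The second, on the minus strand at chr20:3144911-3147967, had 276 in control and 119 in shWTAP. The plus-strand peak at chr2:27301435-27309246, which joined 8 exon blocks over 3928 bases, had 228 and 144. Since they were taken for a high fold in control, a lower value elsewhere is partly set by the choice. In the second control list the first and the last of these had folds of 30.3 and 29.8, further below the control than in shWTAP cells. Folds in that list were lower as a whole, with a median of 4.33 against 6.79 in control.

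The strongest lost peaks had very small p-values and low fold enrichment. Of the 10 lost peaks with the best p, taking 1 per gene, 8 had a control fold under 3, and their folds spanned 1.32 to 5.59. The leading one, on the plus strand of chromosome 14 at chr14:95078663-95080977, had a fold of 4.9 and a log10 p of -567 in control. It was called with a fold of 4.18 with shMETTL14, 1.27 with shMETTL3 and 3.82 in the second control list, and was missing with shWTAP. The log10 p of these matches was -16.0, -32.7 and -447, so the match with shMETTL14 was far weaker by p than by fold. The minus-strand peak at chr11:122928227-122928496, the only control peak of its gene, had a fold of 2.34 and a log10 p of -471. It had folds of 1.37 with shMETTL14, 2.17 with shMETTL3 and 1.75 in the second control list, with log10 p of -47.9, -407 and -227. A 3-block peak at chr20:366293-371943 on the plus strand had the highest fold of the 10, at 5.59. That peak had a fold of 5.17 in the second control list and 1.32 with shMETTL3, and was missing with shMETTL14 as well as with shWTAP. Its log10 p was -263 in control, -78.0 in the second control list and -6.62 with shMETTL3. At chr2:21233625-21233834, in a gene with 15 control peaks, a single peak with a fold of 2.04 was missing with shWTAP and shMETTL14, and had 1.67 with shMETTL3 and 1.89 in the second control list. Of the 10, shMETTL14 retained 5, shMETTL3 8, SETD2 #1 7, the second control 8 and SETD2 #2 9. These peaks were taken for absence from the shWTAP list. Over the whole best class of 10 by p-value, 0.148% of control peaks were absent with shMETTL14 and 0.0593% with shMETTL3. The second control list lacked 0.563% of that class, and the SETD2 lists were not counted in this way.

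Losses differed between peaks in 1 exon block and peaks that joined several exons. A block is a stretch of the peak within 1 exon, so a peak of 3 or more blocks lies in 3 or more exons. With shWTAP 37.2% (36.6 to 37.9) of 20602 single-block peaks were lost, 20.3% (19.4 to 21.1) of 8333 peaks with 2 blocks, and 7.01% (6.30 to 7.77) of 4737 with 3 or more. Over all strengths the second control list showed the same order, with 34.4%, 23.4% and 12.4% absent. Peaks of several blocks were also stronger, so the classes were compared within classes of p-value. In the middle of 5 equal classes, where median lengths were 270, 268 and 301 bases, the shares were 30.8% (29.4 to 32.3), 20.2% (18.4 to 22.2) and 11.8% (9.71 to 14.2).

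At matched strength the shares of the second control list lay closer together, and no difference between the lists was tested. In it the same 3 groups of the middle class were absent at 22.3% (21.1 to 23.7), 22.1% (20.2 to 24.1) and 22.1% (19.3 to 25). In the 2 weaker classes they were absent at 44.5%, 41.8% and 41.7%, and at 67.9%, 66.4% and 61.9%, where shWTAP gave 48.8%, 39.4% and 30.3%, and 67.7%, 55.1% and 46.8%. In the middle class the shares with shMETTL14 were 31.6%, 21.9% and 11.9%, and with shMETTL3 13.1%, 11.8% and 7.67%. The shWTAP order also held in the next stronger class, at 9.37%, 5.22% and 2.94%, where the second control list gave 7.84%, 8.68% and 8.30%. Gains over all strengths were 14.3%, 13.8% and 9.93% of peaks with 1, 2 and 3 or more blocks, and the order turned at matched strength: in the middle class of the shWTAP list 7.51% (6.67 to 8.42) of single-block peaks, 11.7% (10.1 to 13.4) of 2-block peaks and 17.5% (14.8 to 20.5) of peaks with 3 or more blocks were gained. That order was also present in the peaks of the second control list that were absent from the first, at 9.75%, 17.1% and 23.1%.

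**Figure D2:**
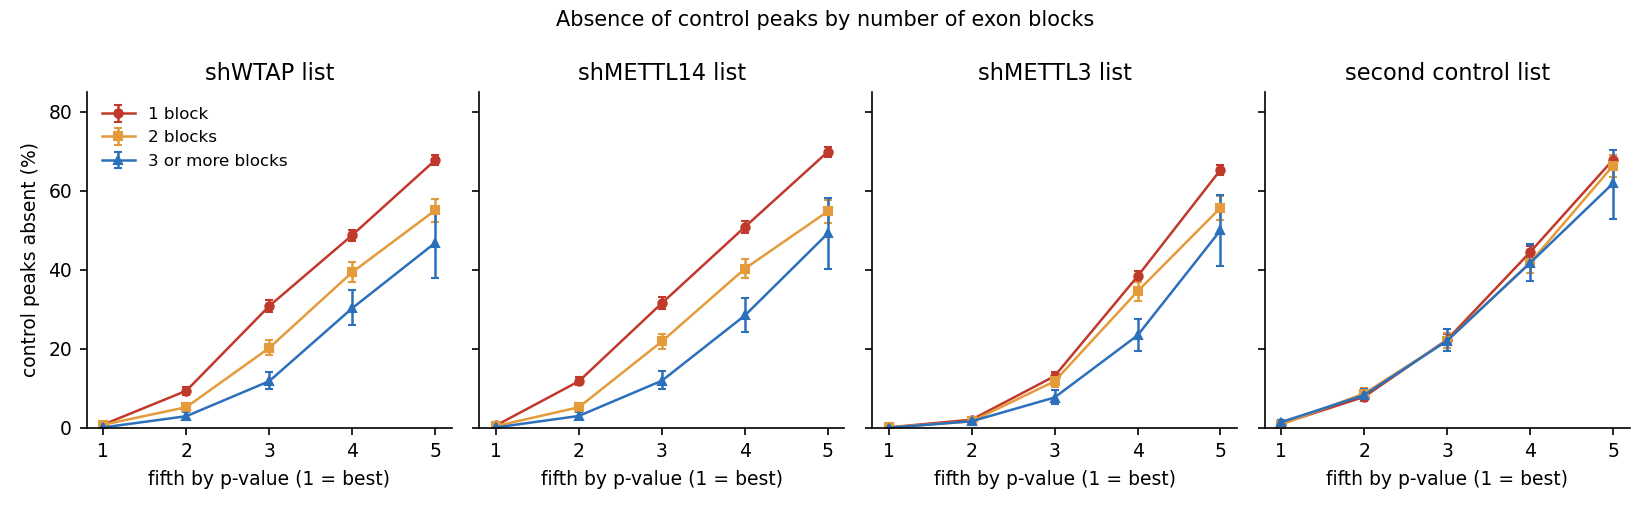
Share of control peaks absent from each of 4 lists, in percent, for peaks of 1, 2 and 3 or more exon blocks in 5 equal classes by p-value, with exact 95% intervals for counting error. In the middle class the shWTAP shares are 30.8%, 20.2% and 11.8%, while in the second control list the 3 lines lie together at 22.1% to 22.3%.

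Losses also followed the position of a peak along its gene. In the 4801 genes with 3 or more control peaks, the 5′-most peak, the peaks between and the 3′-most peak were compared. Over all strengths the shares lost with shWTAP lay close together, at 24.6% (23.4 to 25.9), 27.7% (26.8 to 28.5) and 28.5% (27.2 to 29.8). At matched strength they separated: in the middle of the 5 classes 13% (11 to 15.3) of 5′-most, 27.0% (25.1 to 29.0) of intermediate and 34.4% (31.4 to 37.6) of 3′-most peaks were lost. Fold enrichment differed between these positions even at like p-values, with medians of 10.9, 4.10 and 3.89, and its part in the order was not tested.

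In the same class shMETTL14 gave 16.4%, 26.2% and 33.5%, and shMETTL3 gave 9.08%, 11.5% and 13.5%. The second control list lacked 11.9% (9.96 to 14.1) of the 5′-most peaks, 29.7% (27.7 to 31.7) of those between and 26.0% (23.2 to 29.0) of the 3′-most, so that its highest share was in the middle of genes. In the weakest class the 5′-most and intermediate peaks were lost at 62.4% and 60.2% with shWTAP, and the 3′-most at 68.3%. Gains with shWTAP were most frequent between the ends, at 17.0% (16.2 to 17.7) of intermediate peaks, against 11.7% of both 5′-most and 3′-most peaks of genes with 3 or more. These shares are over all strengths. Second control peaks absent from the control list made up 12.2% of 5′-most, 15.2% of intermediate and 15.1% of 3′-most peaks. For shMETTL14 these shares were 12.0%, 16.9% and 10.9%, and for shMETTL3 8.56%, 12.1% and 9.37%.

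**Figure D3:**
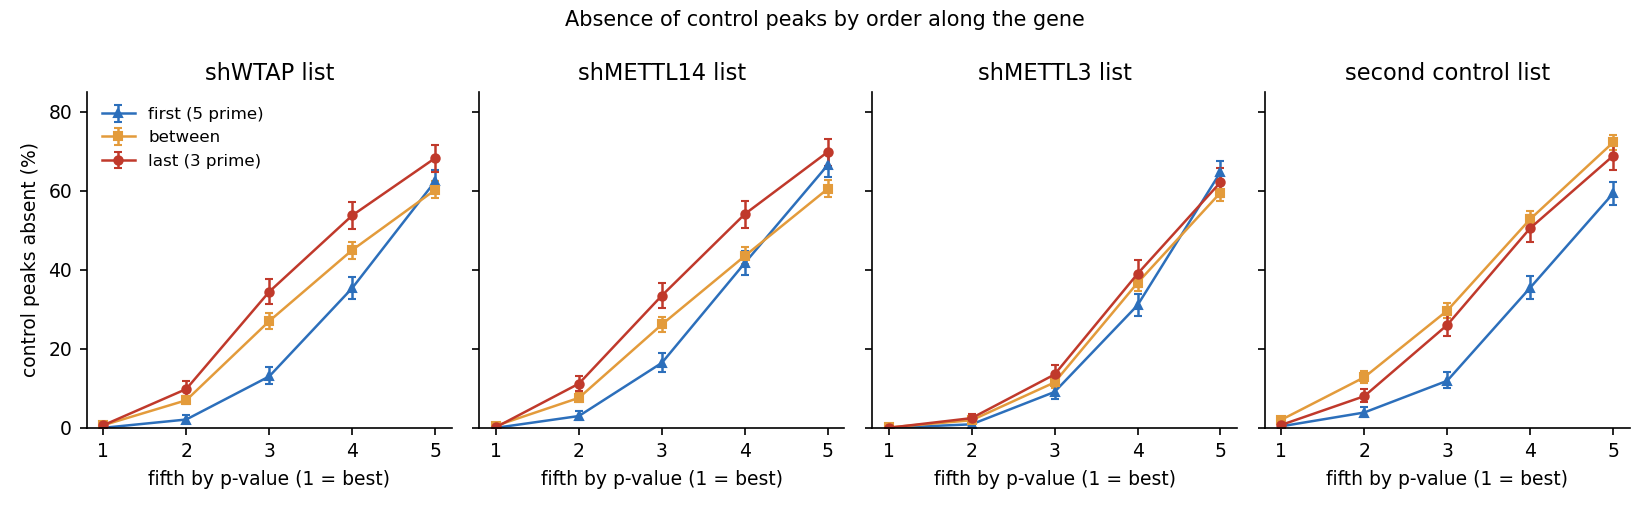
Share of control peaks absent from each of 4 lists, in percent, for the 5′-most, intermediate and 3′-most peaks of genes with 3 or more control peaks, in 5 equal classes by p-value, with exact 95% intervals for counting error. With shWTAP the middle class gives 13%, 27.0% and 34.4%, and the 3′-most line lies highest in each class but the best.

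Peaks in parts of the genome with few other peaks were lost more often. For each control peak the control peaks within a window of 1 Mb around it were counted, and the list was divided into 5 nearly equal classes by that number. In the sparsest class, with up to 12 peaks per window, 38.8% (37.7 to 40) were lost with shWTAP, and the share fell through 33.8%, 27.6% and 22.8% to 20.3% (19.4 to 21.3) in the densest, with 75 or more. For shMETTL14 the ends of this series were 41.9% and 19.9%, and for shMETTL3 29.4% and 17.2%. The second control list ran in the opposite direction, from 25.8% (24.8 to 26.8) to 31.7% (30.6 to 32.9).

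The same order held in the better part of the list by p-value, though not in its best class. Of the 16891 control peaks at or better than the median p-value, 7.41% were lost with shWTAP, against 7.28% absent from the second control list, 7.90% with shMETTL14 and 2.42% with shMETTL3. From the sparsest to the densest class the shWTAP share went from 11.3% (10.2 to 12.4) to 3.92% (3.30 to 4.61), and that of the second control list from 5.78% (5.0 to 6.64) to 9.06% (8.13 to 10.1). Among single-block peaks of the middle p-value class the shWTAP share went from 38.6% (35.5 to 41.7) to 21.3% (18.3 to 24.6). Among peaks of that class with 3 or more blocks it was 15.6% (9.36 to 23.8) of 109 and 6.15% (3.22 to 10.5) of 195, with overlapping intervals. The density classes between gave 15.9%, 16.1% and 8.25%. Gained shWTAP peaks showed no such order, with 13% (12.1 to 14.0) in the sparsest and 13.3% (12.4 to 14.1) in the densest class. The classes between gave 12.2%, 14.1% and 14.7%. Second control peaks absent from the control list fell from 22.3% (21.3 to 23.3) in the sparsest to 9.45% (8.70 to 10.2) in the densest class. The second control list thus had its own difference from the control list by density. For shMETTL14 such peaks rose from 9.75% to 14.3%, and for shMETTL3 from 9.63% to 11.6%.

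**Figure D4:**
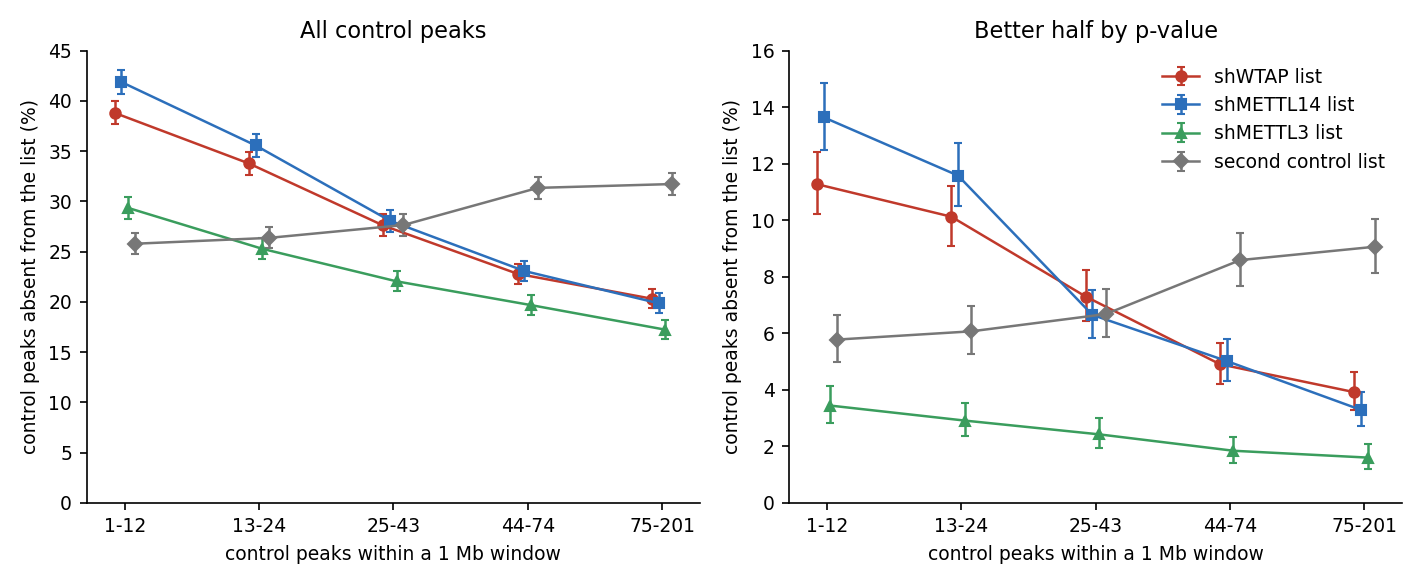
Share of control peaks absent from each of 4 lists, in percent, against the number of control peaks in the surrounding 1 Mb, with exact 95% intervals for counting error. Over all control peaks the shWTAP share falls from 38.8% to 20.3% and the second control share rises from 25.8% to 31.7%; the right panel holds the peaks at or better than the median p-value.

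Between chromosomes the share lost with shWTAP ranged from 21.6% on chromosome 16, with 2296 control peaks, to 43.0% on chromosome 13, with 435. The number of peaks did not order them: chromosome 20, with 962, lost 23.5%, chromosome 21, with 455, lost 30.3%, and chromosome 1, with 3245, lost 28.4%. On chromosomes 13 and 16 shMETTL14 lacked 44.8% and 22.2%, shMETTL3 33.1% and 18.9%, and the second control list 29.7% and 28.7%. These shares are over all strengths, and the median control log10 p was -8.52 on chromosome 13 and -15.95 on chromosome 16. Among peaks at or better than the median p, shWTAP lacked 15.2% (10.2 to 21.3) and 5.08% (3.94 to 6.43), and the second control list 8.99% and 8.37%. Chromosome 19, dense in peaks, was not uniform. Its 2569 peaks up to 52 Mb were lost at 23.0% (21.4 to 24.6), and the 466 from 52 Mb on, where many zinc finger transcription factor genes lie, at 33.9% (29.6 to 38.4). In the second control list these regions gave 31.9% and 33.7%. The median control log10 p was -12 up to 52 Mb and -9.47 from there on, and the regions were not compared at matched strength.

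At the level of genes, 52.3% of the 14570 genes with a control peak kept every one (7626 genes) and 30.3% lost some (4410). No shWTAP peak was left in 2424 genes, 16.6% of those with a control peak, and 3.48% of those with a control peak at or better than the median p-value. Of these, 1857 (76.6%) had had a single control peak. The share with none left fell from 31.1% of genes with 1 control peak to 11.3% with 2, 4.40% with 3 and 0.463% with 8 or more. In the other direction 801 genes, 6.19% of the 12947 with an shWTAP peak, had none in control, and 580 of them (72.4%) had a single one. The share was 13.4% (1734 genes) against the second control list and 1.06% of genes with an shWTAP peak at or better than the median p-value. Both lost and gained peaks were present in 817 genes, 5.61% of those with a control peak. Of the 14570 genes with a control peak, 6944 had a lost peak and 1945 a gained one. Whether lost and gained peaks share genes beyond these totals was not tested.

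With shWTAP no peak was left in 15 genes that had 5 or more control peaks, 83 in all. Such genes were 1.54% of the 651 genes with 5 control peaks, and 0.870%, 0.526% and 0.463% of those with 6, 7 and 8 or more. The files give genes by Ensembl identifier and do not pair these with names, so they are described by position. The gene with the most, ENSG00000168916.15 on the minus strand, had 8 control peaks at chr5:123980050-124080681, with folds of 6 to 19.7 and a best log10 p of -5.12. It had 2 peaks with shMETTL14, 6 with shMETTL3, 5 with SETD2 #1, 2 in the second control list and 7 with SETD2 #2. The next, ENSG00000118412.12 on the plus strand, had 7 control peaks at chr6:90539643-90578598, with folds of 2.53 to 5.71 and a best log10 p of -13.5. It kept 1 peak each with shMETTL14 and shMETTL3, 4 in the second control list and 6 with SETD2 #2. A gene with 6 control peaks at chr15:30001014-30114679 had none with shMETTL14 either, 2 with shMETTL3 and 3 in the second control list. Another with 6, at chr19:52567871-52570836, had none with shMETTL14 or shMETTL3, 4 in the second control list and 6 with SETD2 #2.

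Across the 15 genes the other lists held peaks more often than not. These genes were taken for absence from the shWTAP list alone. How often other genes with as many control peaks had a peak in each list was not counted. The second control list and SETD2 #1 had a peak in all 15, shMETTL3 and SETD2 #2 in 14, and shMETTL14 in 8. Their peaks were mostly of modest enrichment: the highest fold of a gene lay between 3.09 and 23.1, and the best log10 p between -20.3 and -5.12.

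Several genes had many peaks in shWTAP cells and none in control cells. Altogether 23 genes had 5 or more shWTAP peaks, 163 in all, and no control peak. They were 2.87% of the 801 genes with an shWTAP peak and no control peak. Their highest fold per gene was 15.4 to 556 and their best log10 p -189 to -4.29. The lists give no input reads per peak, so such a fold may be a ratio over almost no input, and its size is not read as an amount of m6A. The same limit holds for the folds of the other lost and gained peaks. ENSG00000130294.14, on the minus strand at chr2:241653511-241737378, had 13 shWTAP peaks in 42 blocks over 6101 bases, with folds of 6.90 to 413 and a median of 64.0. ENSG00000136002.16, on the plus strand at chr2:131671924-131804836, also had 13, with folds of 10.5 to 264 and a median of 40.8. Neither gene had a peak in any of the other 6 lists. Another gene at chr16:88493969-88505725 had 12 peaks over 8259 bases with folds of 12.7 to 193, again with none elsewhere. A gene with 7 peaks at chr15:100514461-100879206, with folds of 7.72 to 317, had none in the other lists either.

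Other genes of this group also had peaks with shMETTL14 or shMETTL3. A gene with 9 shWTAP peaks at chr15:43814857-43823519 had 10 with shMETTL14, none with shMETTL3 and 2 with SETD2 #2. One with 10 at chr1:228404841-228566080 had 2 with shMETTL14 and 4 with shMETTL3. Over the 23 genes shMETTL14 had a peak in 12, shMETTL3 in 10, SETD2 #1 in 3, SETD2 #2 in 2 and the second control in 1. The 23 were taken for many shWTAP peaks and absence from the control list. How often other genes with no control peak had a peak in each list was not counted, so these numbers have no share to be read against. Whether these genes were transcribed in control cells cannot be read from the peak lists, since a gene with few reads gives no peak.

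**Figure D5:**
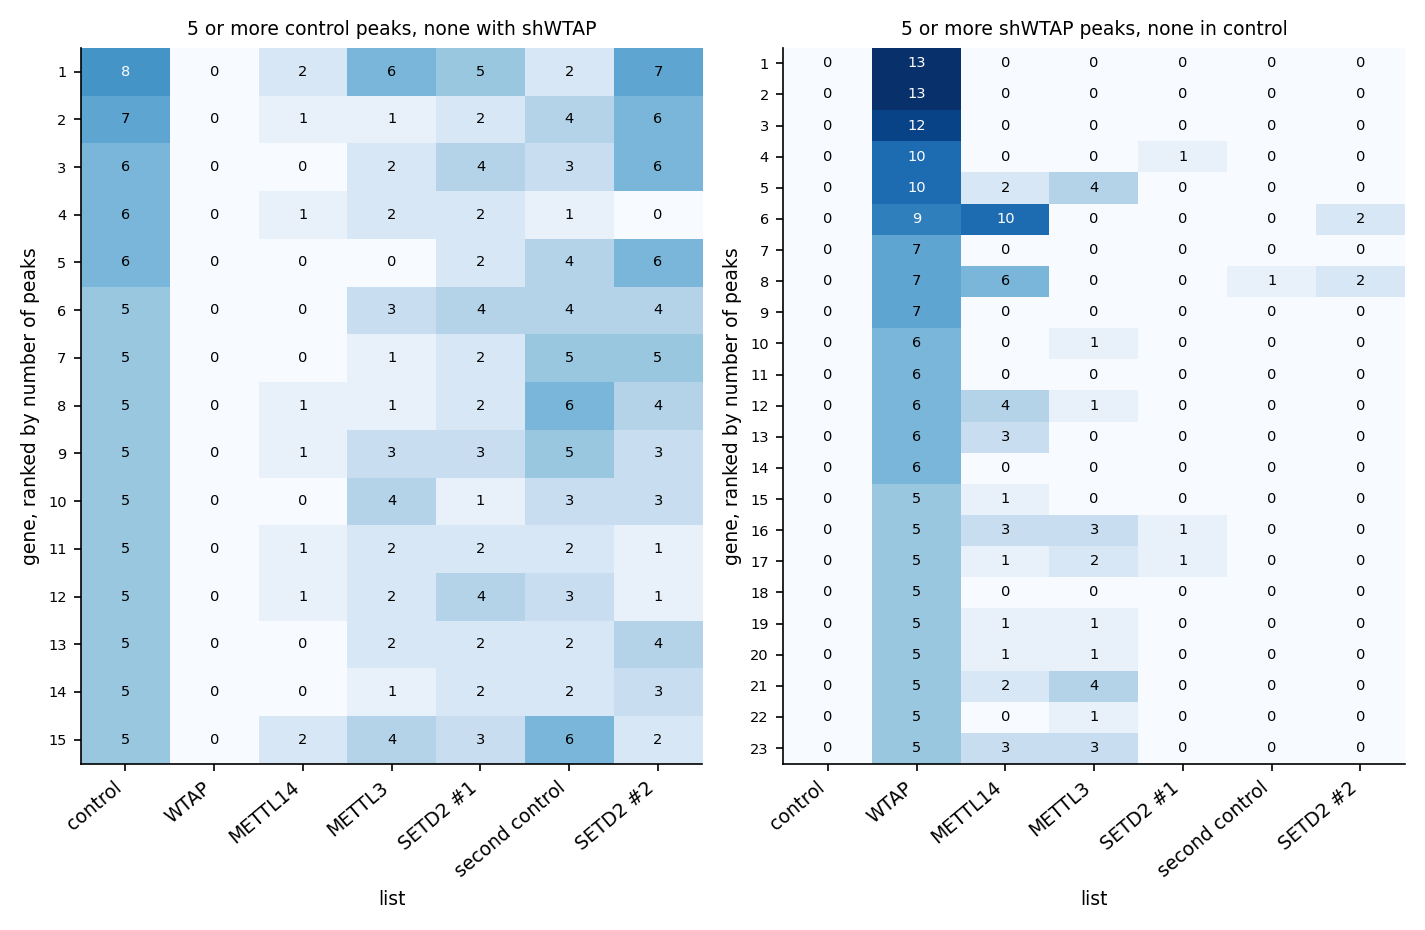
Number of peaks in each of the 7 lists for the genes with 5 or more peaks in one list of the comparison and none in the other, 1 row per gene, ranked by number. How often other genes had a peak in each list was not counted. Left, the 15 genes with no shWTAP peak, all of which have peaks in the second control list; right, the 23 genes with no control peak, of which 1 has a peak in the second control list and 12 have one with shMETTL14.

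Of the 10 strongest gained peaks, 4 lay in genes with no control peak and 6 in genes with one. In 5 of those 6 genes several peaks were gained, up to 6. The leading peak, in a gene with 6 gained peaks of 7, on the plus strand at chr19:38853089-38853418, had a fold of 413 and a log10 p of -282 with shWTAP. It was present at 17.1 with shMETTL14 and 10.1 with shMETTL3, and missing from the other lists. The peak at chr2:23608327-23785062, the first of 10 in its gene, had a fold of 556 and was found only in the shWTAP list. On the minus strand at chr20:2444475-2447952 a 3-block peak of fold 2.37 had 2.08 with shMETTL14 and 2.19 with shMETTL3. A single-block peak at chr16:58545765-58546334 on the plus strand, the 3′-most of 8, had a fold of 14.0, with 10.0 and 7.41 in the shMETTL14 and shMETTL3 lists. At chr9:124072866-124073166 a peak of fold 3.63 had 9.22 with shMETTL14 and 5.83 with shMETTL3, and also 2.68 with SETD2 #1. The peak at chr12:63359603-63359749, of fold 4.64, was present in all lists but the control, at 2.35 in the second control list. Of these 10 peaks, shMETTL14 and shMETTL3 each held 7, SETD2 #1 held 3, and the second control and SETD2 #2 held 1 each. The 10 were taken for their p with shWTAP and absence from the control list. The share of all gained peaks held by each list was not counted, so these numbers have no share to be read against.

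Most gained peaks lay in genes that already had a control peak. There were 2777 of these (69.9%) in 1945 genes, with a median fold of 4.89, and 1196 (30.1%) in 797 genes without one, with a median fold of 11.6. Within marked genes 1249 gained peaks (45%) lay between control peaks or in an intron-containing span of one, 824 (29.7%) before the first and 704 (25.4%) after the last. The median distance to the nearest control peak of the gene was 1163 bases, with 1326 (47.7%) within 1 kb and 483 (17.4%) more than 10 kb away on the genome.

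Within the range of folds from 5 to 10, fixed values were more frequent in lost and gained than in kept peaks. There, values of the control list recurred at whole multiples of 0.4285 (within 0.0055), and those of the shWTAP list at multiples of 0.5515. Such values made up 61.3% (58.9 to 63.6) of the 1657 lost and 22.4% (21.4 to 23.5) of the 6254 kept control peaks with a fold in that range. Most of the 9690 lost peaks lie outside it. In the shWTAP list they made up 60.5% (54.7 to 66.0) of the 301 gained peaks of that range in genes with no control peak, 47.2% (43.1 to 51.3) of the 585 in genes with one, and 18.1% (17.1 to 19.1) of the 5805 kept ones. At the median of all steps tried, 1.74% and 1.81% of values lay on a multiple. What sets these steps was not tested.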

How the data were processed

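Peaks were called in the 3 input and 3 IP libraries of a condition together with exomePeak, per the labels, which gave 1 list per condition. FastQC 0.11.5, TopHat2 2.1.1 and the build hg19 are listed in the submitters' processing notes. For exomePeak's version and the gene annotation, the sources used here give no value. Per the file headers, each deposited row gives blocks, strand, a gene identifier, a p-value of IP against input, its log10 (a score that can be minus infinity, as for 182 control and 315 shWTAP peaks) and the authors' fold enrichment, a linear ratio. The largest false discovery rate was 0.0490 in control and 0.0468 in shWTAP. A shorter deposited list holds the peaks with p of at most 1e-05 and a fold of at least 2.

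Rows that repeated strand and blocks were removed, 16 of 33688 in control and 15 of 29407 in shWTAP. Overlaps were found with bedtools 2.31.1, and values computed with Python 3.11.15, numpy 2.4.6, pandas 2.3.3 and scipy 1.17.1. Classes by p-value are equal parts of 1 list. The overlap rule was checked on simulated data. Peaks to describe were taken by rule: the 10 lost and 10 gained with the best p, 1 per gene, the 5 kept with the best control p (ties by fold), and the 8 genes with most peaks in only 1 list, of which some are printed. The members, classes and rules were chosen with earlier results of these data known. None of the 15371 gene identifiers matched a symbol in the reference table, so function lists, gene families, cell type markers and sequences were not used here. Depth per library is unknown. Alternatives were another overlap, whole spans, other thresholds, another control list, and repeated rows kept. The comparisons within classes of p-value, and those by window, chromosome and fold steps, were added after the data were seen.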

Additional observations from a re-analysis of the deposited data

How the results depend on the processing

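No paired analysis was possible because each list pools replicates 1 to 3, which also allowed no value without a replicate. Function lists had no named genes and were not run. Requiring 50% of the bases of both peaks gave 43.8% of control peaks lost, 35.6% of shWTAP peaks gained and a difference in lost share between sparsest and densest windows of 16.1 percentage points, against 28.8%, 13.5% and 18.5 points. A gap of up to 100 bases gave 27.8% and 12.7%. The shorter lists gave 27.1% lost, 18.3% of genes with no shWTAP peak (16.6%), 6.91% of genes with new peaks (6.19%), a window difference of 21.8 points, and a difference between 1 and 3 or more blocks of 24.5 points (30.2). Peaks at or better than the median p gave 7.41% lost, 3.16% gained, 3.48% and 1.06% of genes, window and block differences of 7.36 and 8.92 points, and a difference between 3′-most and 5′-most peaks of 6.85 points (3.83). The middle p-value class gave a block difference of 19 and an order difference of 21.4 points. With the second control list as control, 30.7% were lost, 28.9% gained, 13.4% of genes were new, and window and block differences were 23.1 and 11.4 points. Control peaks also in the second control list were lost at 19.9%, with a block difference of 21.6 points. The cause of these shifts was not tested. No direction reversed. Whole spans, repeated rows kept, a 2 Mb window and leaving out chromosome 19 moved no value beyond its counting interval. Unknown depth limits every share, since a shallower list has fewer weak peaks.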

Other observations

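Overlap with a peak on the opposite strand went with fewer losses. Of the 3773 control peaks that shared bases with a control peak on the other strand, 21.0% (19.7 to 22.4) had no shWTAP peak, against 29.8% (29.2 to 30.3) of the 29899 others. Among peaks at or better than the median p these shares were 4.85% (3.98 to 5.84) and 7.78% (7.35 to 8.22). The second control list lacked 24.0% and 29.1% over all strengths, and 6.57% and 7.39% among the stronger peaks. Control peaks with an opposite-strand peak were also stronger, with a median log10 p of -16.4 against -11.4 for the others. Among peaks at or better than the median p these medians were -54.9 and -45.8. The 2 groups were not compared at matched strength. On chromosome 6 from 25 to 34 Mb, which holds histone genes and the major histocompatibility complex, 23.3% (19.3 to 27.7) of 408 control peaks were lost with shWTAP and 27.0% (22.7 to 31.5) were absent from the second control list. Genes with 1 control peak lost 32.7% of them with shWTAP, and genes with 8 or more lost 23.6% of theirs, while the second control list lacked 28.9% and 36.7%. Among peaks at or better than the median p the shWTAP shares were 6.96% (6.03 to 7.98) and 6.08% (4.70 to 7.73), with overlapping intervals and higher values for genes with 2 and 3 peaks, at 7.93% and 8.19%.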
